A study of Mus musculus with 16 samples.

Results

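Pericyte markers were read in 4 populations of colon stromal cells. The set held 9 genes (Rgs4, Rgs5, Cspg4, Mcam, Abcc9, Gucy1a1, Gucy1b1, Ndufa4l2 and Higd1b), and every probe set whose only gene symbol was one of them was taken. This gave 15 of the 45141 probe sets on the array, for 7 of the 9 genes: 3 for Rgs4, 4 for Rgs5, 3 for Gucy1a1, 2 for Gucy1b1 and 1 each for Mcam, Ndufa4l2 and Higd1b. Abcc9 and Cspg4 had no probe set of their own and were not analysed here.

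The cells came from the colons of 4 C57BL/6 Gli1CreERT2-ZsGreen mice, in which the Gli1 promoter drives a tamoxifen-dependent Cre that switches on the green protein ZsGreen. All mice received 1 mg of tamoxifen by intraperitoneal injection for 5 days and their colons were taken on day 6, so no group was without tamoxifen. Their age is not given in the sources used here. Cells that stained for gp38 (podoplanin) but not for Epcam, CD45 or CD31 were sorted from each mouse by Sca1 and ZsGreen. Sca1+ cells were split into ZsGreen-high, ZsGreen-dim and ZsGreen-negative (Sca1+ negative) cells, and the fourth population, called Sca1- cells here, lacked both Sca1 and ZsGreen. ZsGreen marks cells in which Cre was active at the time of tamoxifen, not the level of Gli1 at sorting. Each population had 4 arrays, 1 per mouse, made from 2 ng of RNA.

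Pericytes wrap capillaries, share the basement membrane with the endothelium and, with vascular smooth muscle, make up the mural cells of blood vessels. No single gene defines them. Rgs5 and Rgs4 shorten signals of G protein-coupled receptors. Gucy1a1 and Gucy1b1 are the alpha and beta subunits of soluble guanylate cyclase, the receptor for nitric oxide, whose product cGMP relaxes contractile cells. In the gut, interstitial cells of Cajal and fibroblast-like cells also carry parts of this nitric oxide pathway.

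The members did not form one pattern. Rgs5 was lower in each of the Sca1+ populations than in Sca1- cells, which were 4.09- to 5.45-fold higher over its 3 probe sets above background on all arrays. The guanylate cyclase subunits had their lowest means in Sca1+ negative cells. Their mean log2 signals were highest in Sca1- cells for each probe set but Gucy1b1 1420872_PM_at, in which ZsGreen-high and Sca1- cells were level. Rgs4 was dim, with 1 of its 3 probe sets above background on all 16 arrays and that one lower in ZsGreen-high than in Sca1- cells. Ndufa4l2, Higd1b and Mcam passed in none of the 6 comparisons.

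The RefSeq promoters of the 3 genes with the clearest differences are shown because 2 of them, Gucy1a1 and Gucy1b1, code for partners in one enzyme. In the RefSeq table of GRCm38.p6, Gucy1b1 and Gucy1a1 are neighbours on chromosome 3, with 0 genes between them. Rgs5 and Rgs4 are likewise neighbours on chromosome 1, with 0 genes between them. The 250 bases before each start are given 5′ to 3′ on the strand of the gene, at chr1:169655251-169655500 (plus strand) for Rgs5, chr3:82074712-82074961 (minus strand) for Gucy1b1 and chr3:82145651-82145900 (minus strand) for Gucy1a1. Capitals mark the letters CAGCTG.
Rgs5: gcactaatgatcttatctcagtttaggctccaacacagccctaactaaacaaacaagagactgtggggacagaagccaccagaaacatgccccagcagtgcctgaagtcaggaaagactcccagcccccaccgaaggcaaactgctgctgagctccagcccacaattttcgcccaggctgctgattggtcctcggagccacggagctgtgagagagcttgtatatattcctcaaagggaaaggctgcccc
Gucy1b1: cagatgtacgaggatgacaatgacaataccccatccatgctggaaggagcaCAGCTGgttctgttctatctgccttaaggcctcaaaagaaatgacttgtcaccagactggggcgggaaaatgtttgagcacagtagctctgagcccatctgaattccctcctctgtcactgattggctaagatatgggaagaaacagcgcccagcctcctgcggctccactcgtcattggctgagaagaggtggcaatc
Gucy1a1: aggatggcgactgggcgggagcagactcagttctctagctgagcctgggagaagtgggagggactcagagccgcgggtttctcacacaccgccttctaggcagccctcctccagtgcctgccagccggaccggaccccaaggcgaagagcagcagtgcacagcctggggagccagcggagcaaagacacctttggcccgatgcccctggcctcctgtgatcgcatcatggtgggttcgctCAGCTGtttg
Each of the subunit promoters held 1 CAGCTG match, 199 bases before the start of Gucy1b1 and 10 bases before that of Gucy1a1, while the Rgs5 window held 0. These letters occur in 13.0% of 32851 mouse promoter windows of this length. RefSeq lists a further start for Gucy1a1, whose window held none of the motifs searched. The motifs ACGTG (in 16.6% of windows), GACCACCCA (0.225%), TGACGTCA (1.55%) and the CArG box (1.47%) were searched on both strands as well, and none matched in the 3 windows printed. The Mcam window held 1 TGACGTCA, 29 bases before the start. The table had a promoter for 5 of the 7 genes.

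The deposited values were put back on the whole-number signal scale of the arrays, and all signals below are on this scale. Signals of different probe sets cannot be set against each other. Medians per array ran from 661 to 686, and the highest nonspecific control probe set of an array, used as its background, from 234 to 488. The gp38 gene Pdpn read 5982 to 8788 in ZsGreen-high, 5626 to 7234 in ZsGreen-dim, 2828 to 5417 in Sca1+ negative and 1590 to 3878 in Sca1- cells. Gli1 averaged 2611 ± 321 in ZsGreen-high, 2323 ± 322 in ZsGreen-dim, 1104 ± 299 in Sca1+ negative and 920 ± 318 in Sca1- cells (SD, n = 4 each). Epcam, the gene of a protein sorted against, was above background in all 4 populations, at 3472 ± 2370, 10281 ± 3827, 17884 ± 3522 and 17339 ± 5049 in the same order. The transcript Xist, read as a check of the mouse labels, was 189 and 172 on the ZsGreen-high and ZsGreen-dim arrays labelled mouse 2, but 25502 and 28550 on the Sca1+ negative and Sca1- arrays labelled mouse 2. Each of the other 3 mice was either low (139 to 198) or high (22097 to 33048) on all 4 arrays. Counts of mice and fits with the mouse as a block therefore rest on labels that Xist goes against for mouse 2, and results are given without it below.

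Rgs5, a widely used pericyte marker, set Sca1- cells apart from each Sca1+ population. Its brightest probe set (1420941_PM_at) read 8877, 9288, 7221 and 6794 in ZsGreen-high cells of mice 1 to 4, 6016, 6015, 5144 and 9256 in ZsGreen-dim, 9775, 6546, 3980 and 10524 in Sca1+ negative and 43305, 32743, 21047 and 37880 in Sca1- cells. All 4 Sca1- arrays lay above all 12 Sca1+ arrays, and the Sca1+ populations overlapped one another. Means were 8045 ± 1222, 6608 ± 1813, 7706 ± 3025 and 33744 ± 9500 (SD, n = 4 each). Against Sca1- cells the log2 difference was -2.03 ± 0.29 (SE, adjusted p = 1.17e-04) in ZsGreen-high, -2.34 ± 0.29 (adjusted p = 1.66e-04) in ZsGreen-dim and -2.18 ± 0.29 (adjusted p = 5.72e-04) in Sca1+ negative cells, by limma with Benjamini-Hochberg adjustment over all 45037 probe sets that are not controls.

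The other 3 probe sets of Rgs5 had the same directions. Probe set 1417466_PM_at read 5659, 5402, 4879 and 4145 in ZsGreen-high, 4049, 3325, 3282 and 5435 in ZsGreen-dim, 5346, 3642, 2543 and 6721 in Sca1+ negative and 34756, 18338, 13576 and 24489 in Sca1- cells. The dimmest, 1420942_PM_s_at, read 275 to 303 in ZsGreen-high, 224 to 367 in ZsGreen-dim and 245 to 392 in Sca1+ negative cells, where 3, 1 and 1 of 4 arrays exceeded the background, and 755 to 2631 in Sca1- cells. In Sca1+ negative minus Sca1- cells, the log2 differences of the other 3 probe sets ran from -2.33 ± 0.30 to -2.18 ± 0.29, lower in 4 of 4 mice for each. None of the 3 comparisons among Sca1+ cells was called for any Rgs5 probe set. For the brightest, ZsGreen-high minus Sca1+ negative cells was 0.15 on the log2 scale, with a 95% interval of -0.46 to 0.76.

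**Figure D1:**
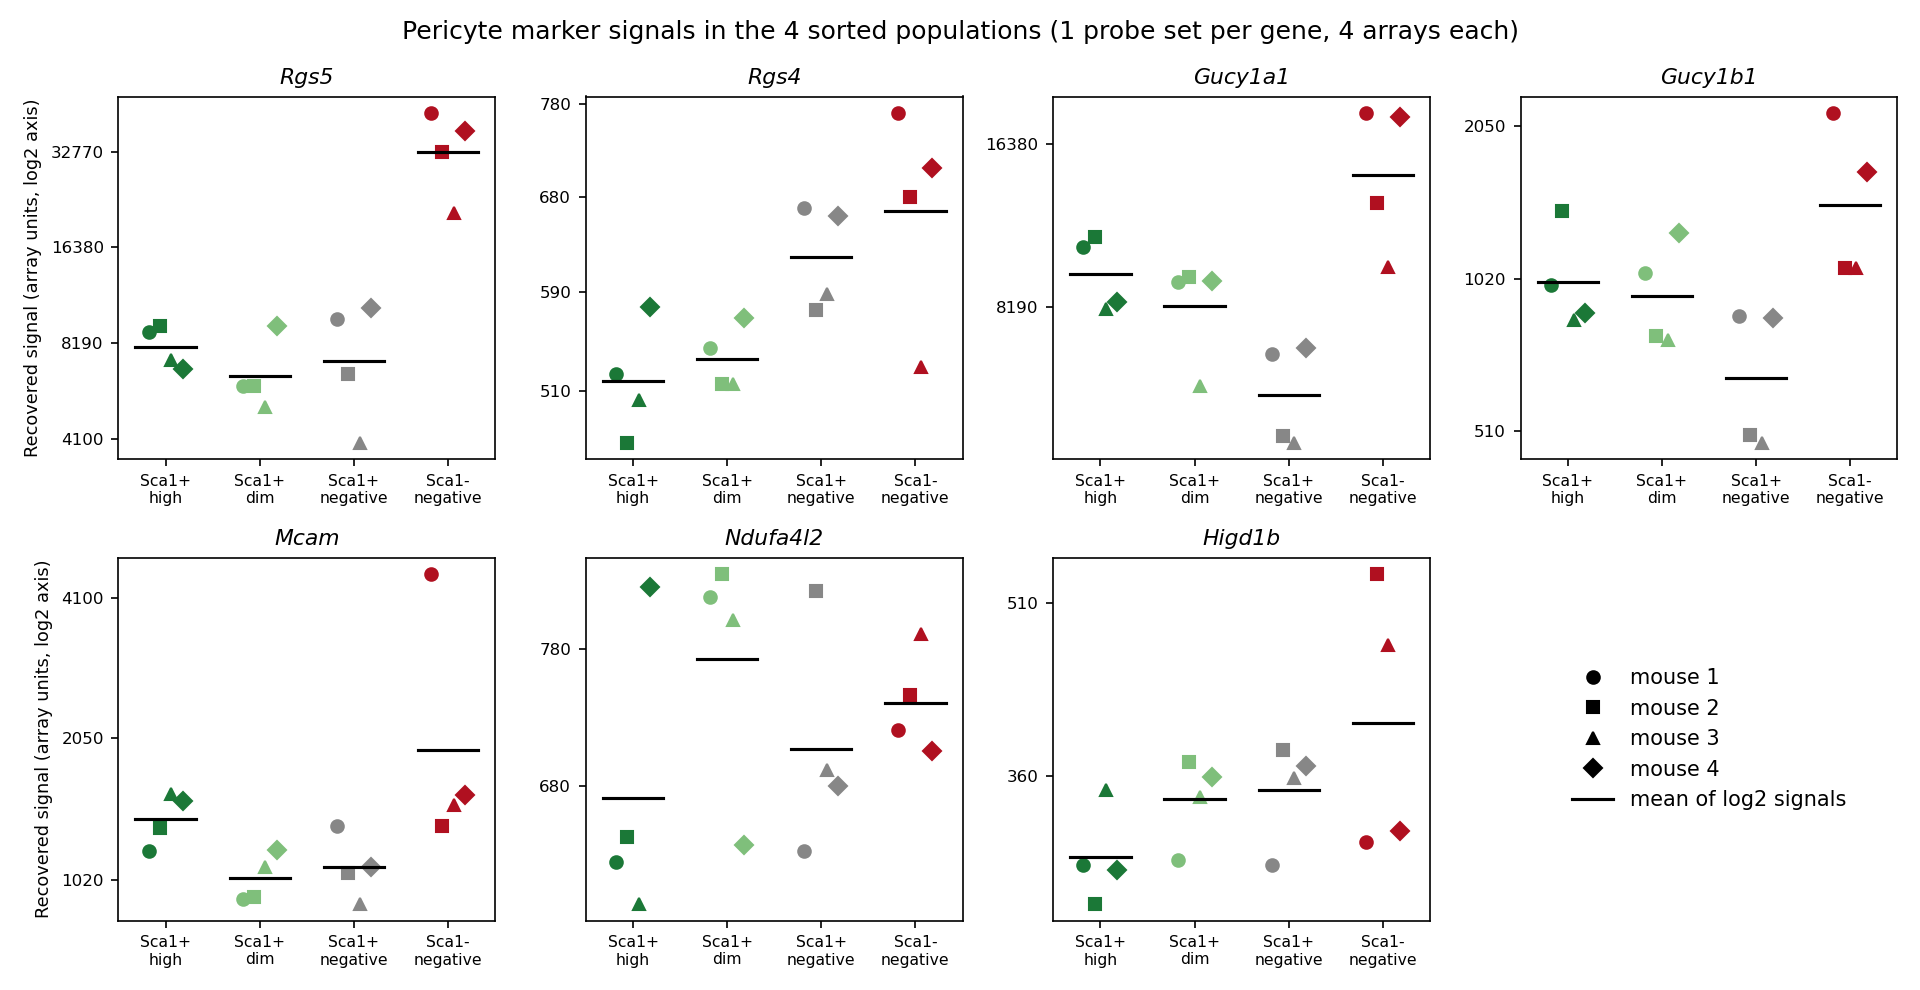
Recovered signal (log2 axis, array units) of 1 probe set for each of the 7 measured genes, with 4 arrays per population, 1 symbol per mouse and a bar at the mean of the log2 signals. Rgs5 in Sca1- cells lies between 21047 and 43305, above all Sca1+ arrays, while Ndufa4l2 stays between 604 and 841 throughout, on axes that differ in range between genes.

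Gucy1a1, the alpha subunit, was graded. Probe set 1420533_PM_at read 10559, 11009, 8121 and 8348 in ZsGreen-high, 9098, 9306, 5855 and 9149 in ZsGreen-dim, 6700, 4732, 4590 and 6865 in Sca1+ negative and 18673, 12721, 9715 and 18342 in Sca1- cells. Sca1- arrays lay above those of ZsGreen-dim and Sca1+ negative cells and overlapped those of ZsGreen-high cells, which in turn lay above those of Sca1+ negative cells. Means in the same order were 9509 ± 1486, 8352 ± 1667, 5722 ± 1228 and 14863 ± 4386 (SD, n = 4 each). Between the neighbours in this order, ZsGreen-high minus ZsGreen-dim (0.20, 95% interval -0.27 to 0.67) and ZsGreen-dim minus Sca1+ negative (0.55, 95% interval 0.08 to 1.01, adjusted p = 0.188) missed the threshold on the log2 scale.

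Against Sca1- cells this Gucy1a1 probe set fell by 0.61 ± 0.22 on the log2 scale in ZsGreen-high (adjusted p = 0.0468), by 0.81 ± 0.22 in ZsGreen-dim (adjusted p = 0.0269) and by 1.35 ± 0.22 in Sca1+ negative cells (adjusted p = 0.00303), by limma. The ZsGreen-high call was lost in 14 of 20 fits that left out 1 array or mouse (log2 difference -0.79 to -0.43). Its ZsGreen-high signal was 1.68-fold that of Sca1+ negative cells (0.74 ± 0.22, adjusted p = 0.0205), higher in 4 of 4 pairs by mouse label, which Xist goes against for mouse 2. The 3′ to 5′ signal ratio of the Actb controls, a sign of RNA quality, averaged 1.24 ± 0.0309 in ZsGreen-high and 1.11 ± 0.0137 in Sca1+ negative cells (SD, n = 4 each), without overlap, and its part in this difference was not tested. The other 2 probe sets had the same directions. Probe set 1420534_PM_at read 7853 to 10241 in ZsGreen-high, 5642 to 9512 in ZsGreen-dim, 3673 to 7304 in Sca1+ negative and 9159 to 19052 in Sca1- cells. Probe set 1434141_PM_at varied more within populations, from 2057 to 6273 in Sca1+ negative and from 6058 to 14543 in Sca1- cells, and its Sca1+ negative minus Sca1- difference of -1.48 ± 0.38 missed the threshold (adjusted p = 0.0535).

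Gucy1b1, the beta subunit, had the same order of mean log2 signals in 1 of its 2 probe sets. This one, 1420871_PM_at, read 993, 1394, 849 and 876 in ZsGreen-high, 1048, 788, 773 and 1263 in ZsGreen-dim, 862, 501, 484 and 857 in Sca1+ negative and 2179, 1072, 1076 and 1665 in Sca1- cells. Sca1- arrays lay above the Sca1+ negative ones and overlapped those of the ZsGreen-positive populations. Probe set 1420872_PM_at read 938, 1047, 686 and 694 in ZsGreen-high, 563, 660, 438 and 830 in ZsGreen-dim, 600, 392, 361 and 512 in Sca1+ negative and 1260, 546, 666 and 980 in Sca1- cells. ZsGreen-high and Sca1- arrays overlapped here, with a log2 difference of 0.01 (95% interval -0.54 to 0.57). Mean signals were 841 in ZsGreen-high and 863 in Sca1- cells. The Sca1+ negative minus Sca1- difference was -1.14 ± 0.27 (adjusted p = 0.0356), and that of probe set 1420872_PM_at was -0.84 ± 0.26 (adjusted p = 0.131), by limma. ZsGreen-high minus Sca1+ negative was 0.86 ± 0.26 for 1420872_PM_at (adjusted p = 0.0240) and 0.63 ± 0.27 for 1420871_PM_at (adjusted p = 0.0977). Over the 16 arrays, log2 signals of Gucy1a1 1420533_PM_at and Gucy1b1 1420871_PM_at correlated at r = 0.92, and their deviations from the population means at 0.84. Other probe set pairs of the 2 genes correlated at 0.81 to 0.91. Deviations of Rgs5 1420941_PM_at correlated about as strongly, at 0.82 with this Gucy1a1 probe set and 0.84 with this Gucy1b1 probe set. These arrays share mice, and sorted cells of each mouse.

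Mcam, which codes for the adhesion protein CD146, did not pass in any comparison. It read 1174, 1314, 1555 and 1508 in ZsGreen-high, 928, 935, 1084 and 1181 in ZsGreen-dim, 1333, 1056, 905 and 1086 in Sca1+ negative and 4609, 1330, 1477 and 1551 in Sca1- cells. The high Sca1- mean of 2242 ± 1581 rests on mouse 1, whose array read 4609 against 1330 to 1551 in the other 3. The ZsGreen-dim minus Sca1- difference was -0.92 ± 0.29 (adjusted p = 0.0538) and that of Sca1+ negative cells -0.84 ± 0.29 (adjusted p = 0.199), by limma.

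Rgs4, the neighbour of Rgs5, was dim. Its brightest probe set (1416287_PM_at) read 523, 472, 503 and 577 in ZsGreen-high, 543, 515, 515 and 568 in ZsGreen-dim, 669, 575, 589 and 661 in Sca1+ negative and 770, 680, 528 and 710 in Sca1- cells. It was above background on all 16 arrays, and ZsGreen-high cells were 0.36 ± 0.10 lower than Sca1- cells on the log2 scale (adjusted p = 0.0135, limma), but 0.11 higher after scaling to hybridization controls. Probe set 1416286_PM_at was at background on all 4 arrays of ZsGreen-high (199 to 233) and of ZsGreen-dim cells (195 to 244), against 264 to 447 in Sca1+ negative and 212 to 635 in Sca1- cells. The Sca1+ negative arrays exceeded the background in 2 of 4 cases and the Sca1- arrays in 1 of 4. The remaining probe set was at background in all 4 populations, between 182 and 244.

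Ndufa4l2, a mitochondrial protein induced by low oxygen, read 630, 646, 604 and 830 in ZsGreen-high, 822, 841, 803 and 641 in ZsGreen-dim, 637, 827, 691 and 680 in Sca1+ negative and 719, 745, 792 and 704 in Sca1- cells. All populations overlapped, and the 95% interval of the Sca1+ negative minus Sca1- difference was -0.31 to 0.17 on the log2 scale. Higd1b, of a family of hypoxia-induced mitochondrial proteins, read 301, 278, 350 and 298 in ZsGreen-high, 304, 370, 345 and 359 in ZsGreen-dim, 301, 379, 358 and 367 in Sca1+ negative and 315, 540, 468 and 322 in Sca1- cells. It exceeded the background on 8 of the 16 arrays. ZsGreen-high minus Sca1- was -0.39 ± 0.15 (adjusted p = 0.0633).

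Counted over the 15 probe sets, 7 were lower and 0 higher in Sca1+ negative than in Sca1- cells, against 1.28% of all probe sets lower and 1.03% higher. The 7 are the 4 of Rgs5, 2 of Gucy1a1 and 1 of Gucy1b1, and they are also the 7 whose arrays did not overlap (3.23% of all probe sets were lower without overlap). Probe sets of one gene measure the same transcript, so these are 3 genes. ZsGreen-high cells had 6 lower and 0 higher against Sca1- cells, where 14% and 17.2% of all probe sets were called. ZsGreen-dim cells had 6 lower and 0 higher against Sca1- cells, where 4.94% and 6.71% were called. In ZsGreen-high against Sca1+ negative cells 4 were higher and 0 lower, the 3 of Gucy1a1 and 1 of Gucy1b1. Of all probe sets 15.2% were higher and 11% lower there, and by gene 1 of 7 was higher, against 16.5% of all genes higher and 13.6% lower.

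ZsGreen-dim against Sca1+ negative cells gave 0 calls by limma (0.608% of all probe sets were higher and 0.324% lower), with 4 of the 15 at an unadjusted p under 0.05. ZsGreen-high against ZsGreen-dim cells gave 0 as well (0.298% and 0.46%), with 0 at an unadjusted p under 0.05. In the moderated F test over the 4 populations 9 of 15 passed, against 27.8% of all probe sets. The median log2 difference of the 15 was 0.15 for ZsGreen-high minus Sca1+ negative, -0.03 for ZsGreen-dim minus Sca1+ negative, 0.14 for ZsGreen-high minus ZsGreen-dim, -1.14 for Sca1+ negative minus Sca1-, -0.51 for ZsGreen-high minus Sca1- and -0.65 for ZsGreen-dim minus Sca1- cells. The 3 comparisons against Sca1- cells share the 4 Sca1- arrays.

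**Figure D2:**
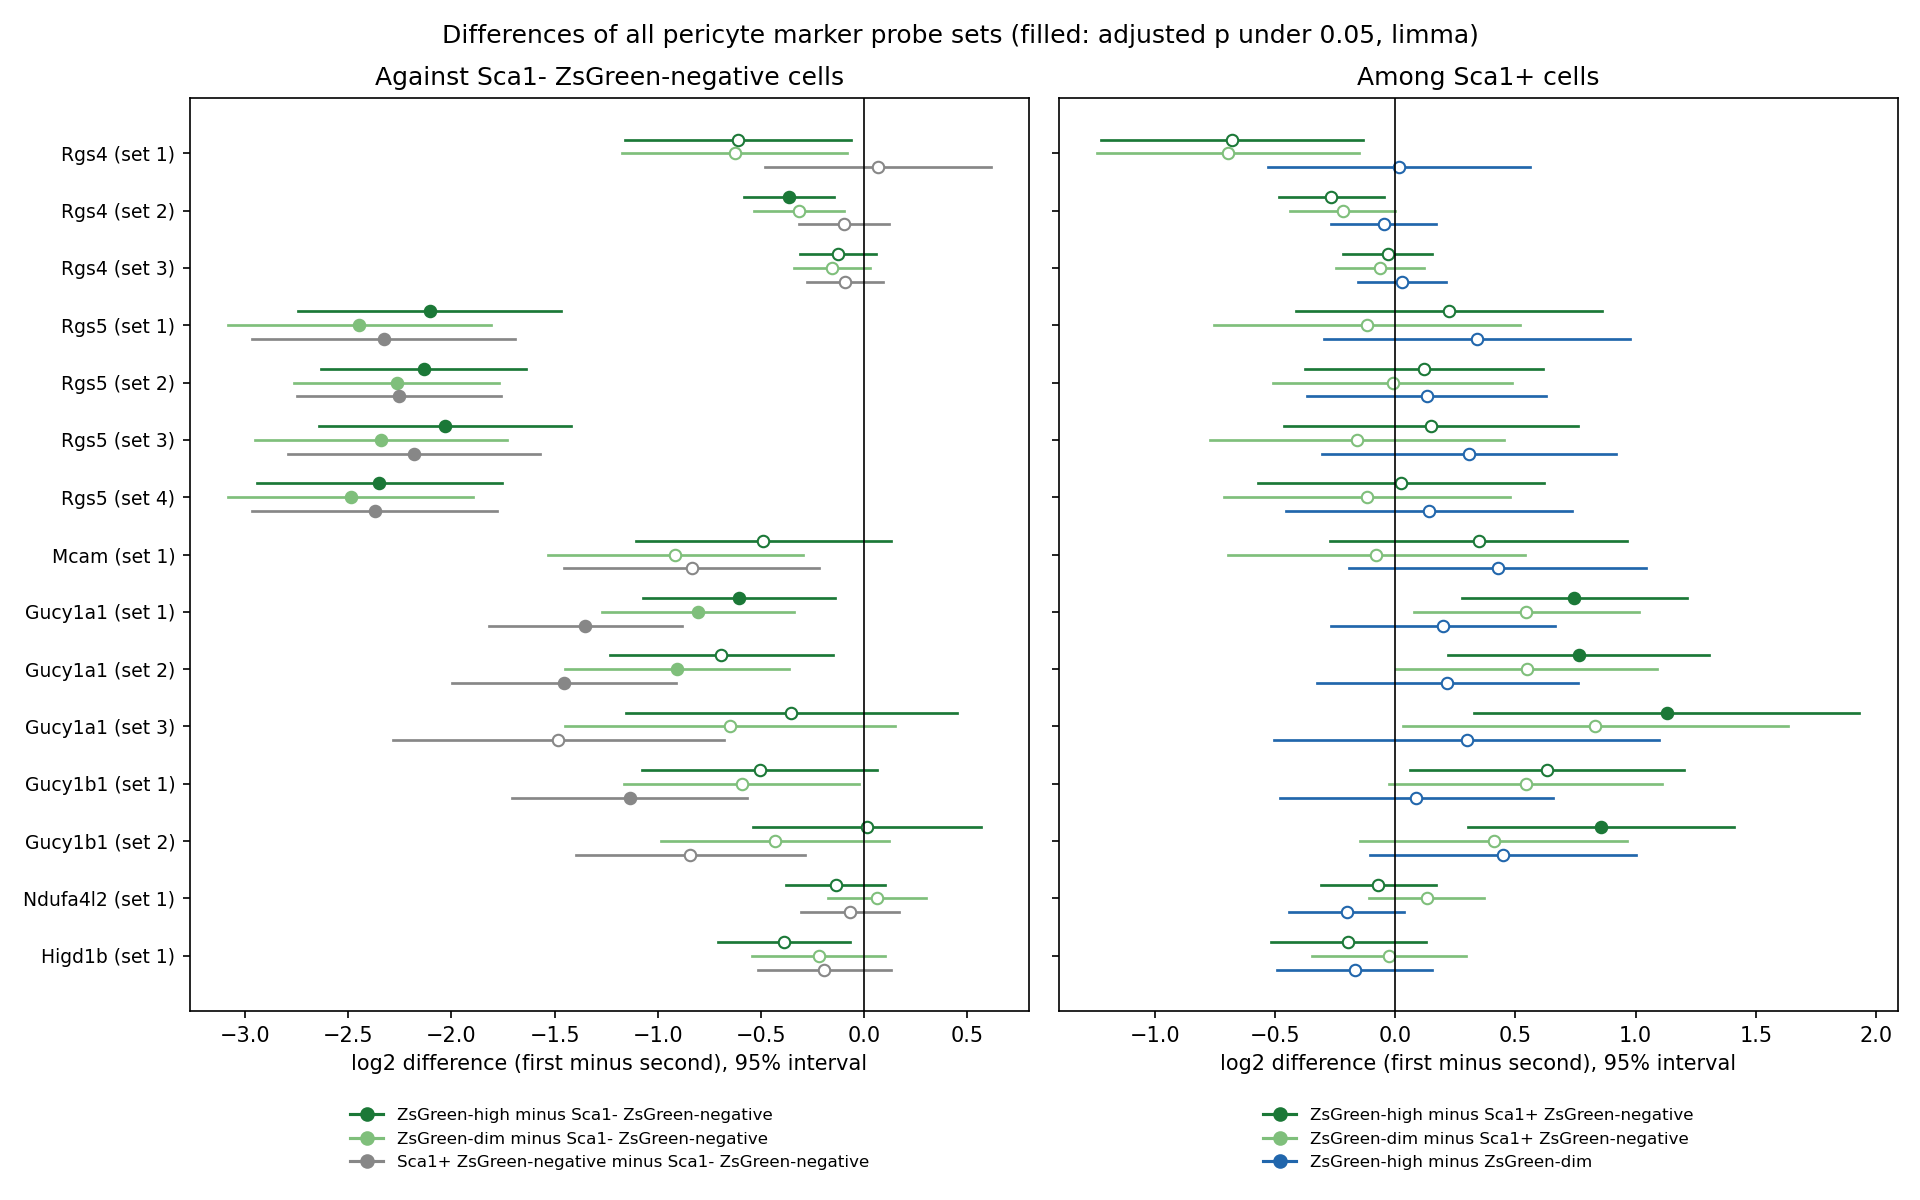
Log2 difference of each of the 15 probe sets (numbered within a gene) with its 95% interval, filled where the adjusted p was under 0.05. The left panel holds the 3 comparisons with Sca1- cells, in which the 4 Rgs5 sets lie between -2.49 and -2.03, and the right panel the 3 among Sca1+ cells, in which the filled points are Gucy1a1 and Gucy1b1 in ZsGreen-high minus Sca1+ negative cells.

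Without the 4 arrays labelled mouse 2, the counts were 4 lower (all of Rgs5) in each of the comparisons with Sca1- cells and 0 in ZsGreen-high against Sca1+ negative cells. Gucy1a1 1420533_PM_at was then 0.59 on the log2 scale in ZsGreen-high minus Sca1+ negative cells (adjusted p = 0.190). With the mouse as a block, 7 probe sets were called in ZsGreen-high against Sca1+ negative cells (5 higher, 2 lower) and 2 of Gucy1a1 in ZsGreen-dim against Sca1+ negative cells (adjusted p = 0.0295 and 0.0434). The block raised the calls over all probe sets from 11812 to 13479 and from 420 to 4718 in these comparisons. Leaving out any 1 array or mouse, 20 fits in all, kept the Rgs5 calls in each comparison with Sca1- cells, where the adjusted p of 1420941_PM_at in Sca1+ negative cells reached 0.0315. In Sca1+ negative against Sca1- cells the Gucy1b1 1420871_PM_at call was kept in 11 of the 20 and those of Gucy1a1 in 18 each. In ZsGreen-dim against Sca1- cells the Gucy1a1 calls were kept in 15 (1420533_PM_at) and 11 (1420534_PM_at), and in ZsGreen-high against Sca1- cells that of 1420533_PM_at in 6. The 4 calls in ZsGreen-high against Sca1+ negative cells were kept in 12 to 15. Fits without 1 array of ZsGreen-dim or Sca1- cells, which lie outside this comparison, gave 4 to 7 calls in it. The other fits gave 0 to 5.

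Other mural markers went both ways. Of 16 measured genes of a wider list, 4 were higher and 3 lower in Sca1+ negative than in Sca1- cells. Among all genes 1.22% were higher and 1.2% lower there. Art3, an ADP-ribosyltransferase family member, read 933 ± 248 in Sca1+ negative and 4496 ± 2510 in Sca1- cells (-2.16 ± 0.27, adjusted p = 4.06e-04, limma). Enpep, an aminopeptidase that cleaves angiotensin, read 1655 ± 250 and 7080 ± 2169 in the same order (-2.06 ± 0.25, adjusted p = 3.51e-04). Heyl, a target of Notch signalling, was lower by 1.32 ± 0.30 on the log2 scale. Cd248 (endosialin), Anpep (an aminopeptidase), Steap4 (a metalloreductase) and Vtn (vitronectin) were higher in Sca1+ negative cells, with log2 differences of 1.28, 1.14, 1.07 and 0.85.

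Pdgfrb, the PDGF receptor through which endothelium recruits pericytes, had higher means in both ZsGreen-positive populations than in the ZsGreen-negative ones. It averaged 4079 ± 360 in ZsGreen-high, 3999 ± 626 in ZsGreen-dim, 2679 ± 308 in Sca1+ negative and 1906 ± 587 in Sca1- cells (SD, n = 4 each). Its ZsGreen-dim minus Sca1+ negative difference missed the threshold, as did ZsGreen-high minus ZsGreen-dim. ZsGreen-high cells were 1.14 ± 0.16 higher than Sca1- cells on the log2 scale (adjusted p = 1.34e-04, limma). This held in 4 of 4 pairs by mouse label, which Xist goes against for mouse 2. Kcnj8, the pore subunit partnered by Abcc9, read 866, 974, 703 and 616 in ZsGreen-high, 376, 427, 423 and 446 in ZsGreen-dim, 743, 316, 220 and 437 in Sca1+ negative and 3282, 700, 705 and 1049 in Sca1- cells. Its highest array, Sca1- cells of mouse 1, is also the highest for Mcam. Des and Notch3 passed in none of the 6 comparisons.

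**Figure D3:**
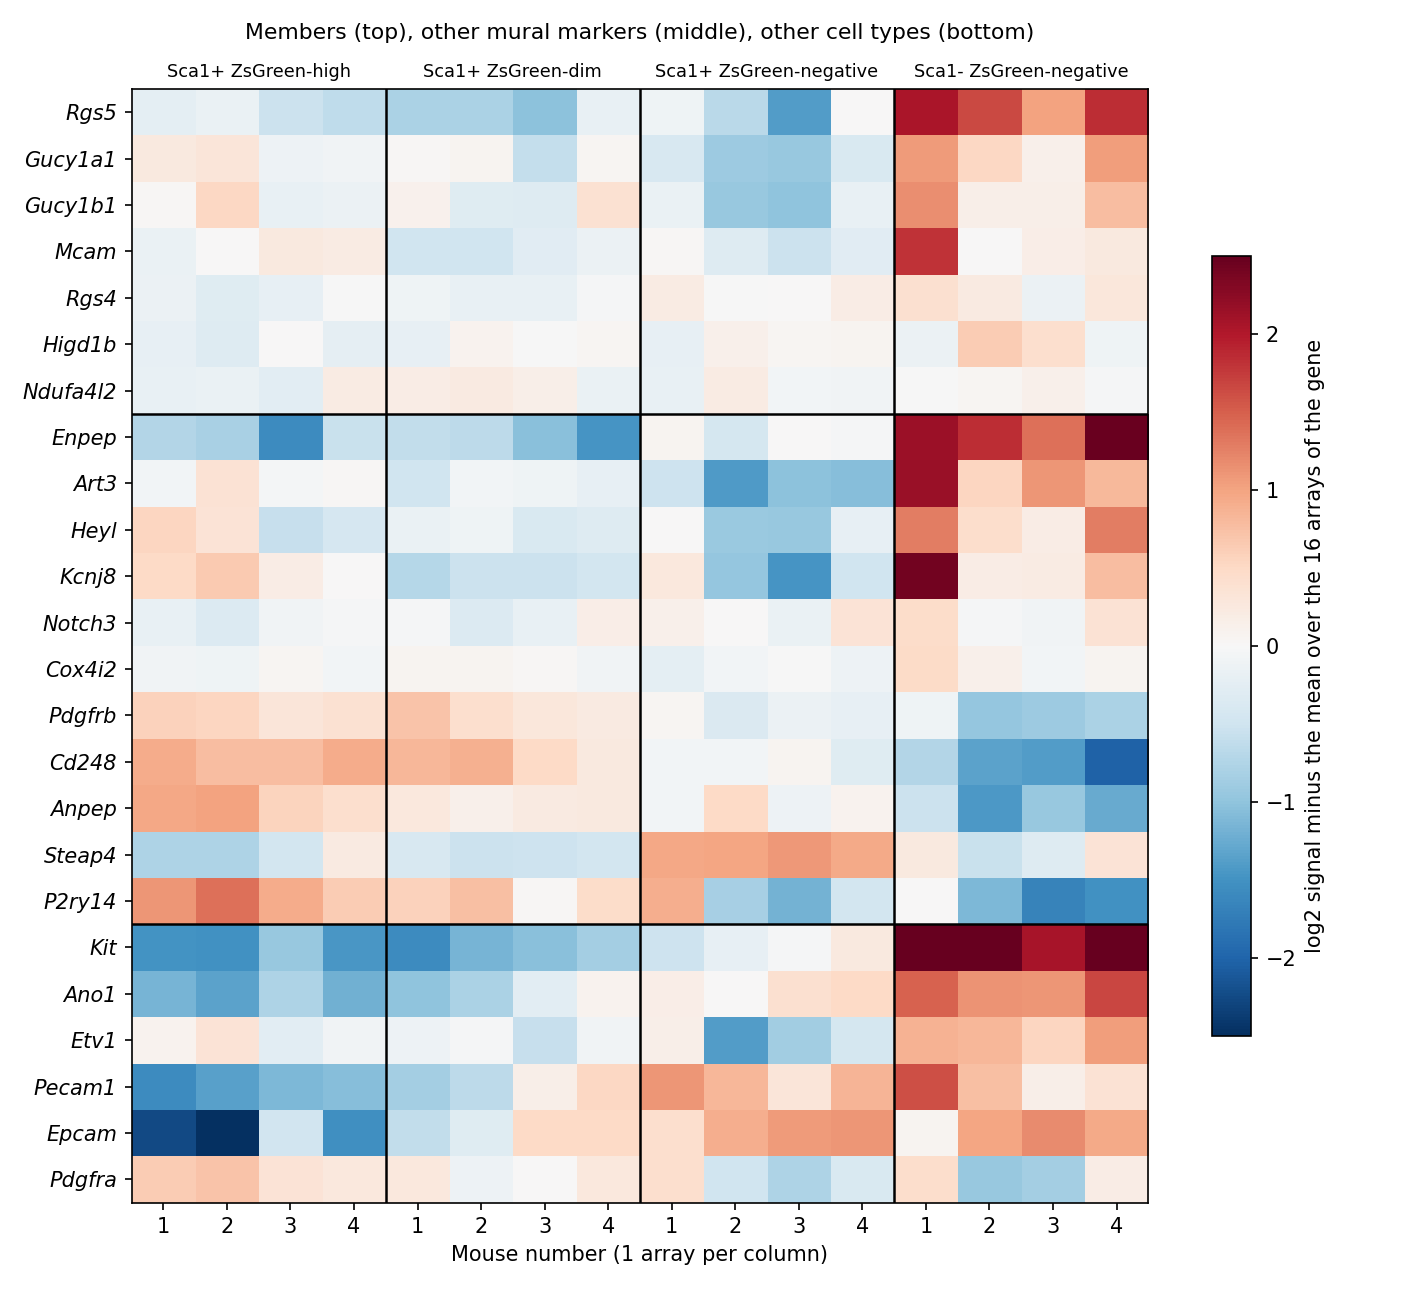
Log2 signal minus the mean over the 16 arrays for the 7 members (top), 11 other mural genes (middle) and 6 genes of other cell types (bottom), with 1 column per array. Rgs5, Enpep, Kit and Ano1 are highest in Sca1- cells, while Pdgfrb and Cd248 are lowest there.

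Genes of the nitric oxide and cGMP pathway were described beside the 2 cyclase subunits. Of 11 measured genes, 0 were higher and 1 lower in Sca1+ negative than in Sca1- cells, against 1.22% and 1.2% of all genes. This was Pde3a, a cGMP-inhibited phosphodiesterase, at 2182 ± 254 in Sca1+ negative and 4864 ± 1102 in Sca1- cells (-1.13 ± 0.14, adjusted p = 3.77e-04, limma). In ZsGreen-high against Sca1+ negative cells 4 rose and 2 fell, but 8 rose and 1 fell after scaling to hybridization controls. Among all genes 16.5% rose and 13.6% fell there. After the scaling 32374 of 45037 probe sets were called, 94.7% of them higher. Kcnmb1 and Kcnma1, subunits of a potassium channel that cGMP signalling opens, rose by 1.73 and 0.96 on the log2 scale, and the phosphodiesterase Pde1a by 1.11. Vasp, an actin regulator phosphorylated by the cGMP kinase, fell by 1.39. Gucy1a2, the other alpha subunit, read 490 ± 124 in ZsGreen-high, 410 ± 79 in ZsGreen-dim, 316 ± 79 in Sca1+ negative and 272 ± 85 in Sca1- cells, an order that differs from that of Gucy1a1.

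Of 7 other RGS genes of the subfamily of Rgs4 and Rgs5, 0 passed in Sca1+ negative against Sca1- cells, with 1 lower at an unadjusted p under 0.05. Among all genes 1.22% were higher and 1.2% lower there. Rgs2 read 9661 ± 1449 in ZsGreen-high, 8180 ± 1572 in ZsGreen-dim, 5460 ± 1829 in Sca1+ negative and 4582 ± 1509 in Sca1- cells. The ZsGreen-high minus Sca1- difference of Rgs2 was 1.11 ± 0.23 (adjusted p = 0.00181, limma). Of 12 measured hypoxia targets, read beside Ndufa4l2 and Higd1b, 9 were lower and 0 higher in ZsGreen-high than in Sca1+ negative cells, but 3 lower and 1 higher after scaling to hybridization controls. Among all genes 13.6% were lower and 16.5% higher there. After the scaling 32374 of 45037 probe sets were called, 94.7% of them higher. Car9, a carbonic anhydrase, fell by 1.75 and Slc2a1, a glucose transporter, by 1.61 on the log2 scale. All 14 measured epithelial genes also fell in this comparison, so the epithelial level and the population cannot be told apart for these targets. In Sca1+ negative against Sca1- cells 1 hypoxia target was higher (Adm, 0.97) and 0 were lower.

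Markers of interstitial cells of Cajal and of enteric glia were also lower in Sca1+ than in Sca1- cells. Kit, the receptor that defines interstitial cells of Cajal in the gut wall, read 209, 204, 302 and 214 in ZsGreen-high, 196, 262, 284 and 323 in ZsGreen-dim, 409, 507, 572 and 691 in Sca1+ negative and 4305, 3296, 2433 and 5249 in Sca1- cells. All 4 Sca1- arrays lay above the rest, and the Sca1+ negative minus Sca1- difference was -2.78 ± 0.23 (adjusted p = 7.15e-06, limma). All 3 markers of these cells (Kit, Ano1 and Etv1) were lower in each Sca1+ population than in Sca1- cells, but only 2 of them in ZsGreen-high cells after scaling to hybridization controls. Their summed signal was 4286 to 5221 in ZsGreen-high, 4638 to 8416 in ZsGreen-dim, 7483 to 10802 in Sca1+ negative and 18266 to 28488 in Sca1- cells. Of 4 measured genes of enteric glia, the support cells of the gut's nerves, 3 (S100b, Sox10 and Gfap) were lower in Sca1+ negative than in Sca1- cells. All 4, with Erbb3, were lower in ZsGreen-high and in ZsGreen-dim than in Sca1- cells. After scaling to hybridization controls these counts were 2 for Sca1+ negative, 3 for ZsGreen-high and 4 for ZsGreen-dim cells. Without the scaling, 1.2% of all genes were lower in Sca1+ negative, 16.3% in ZsGreen-high and 5.62% in ZsGreen-dim than in Sca1- cells. The summed glial signal was 2944 to 5468 in ZsGreen-high, 6037 to 8363 in ZsGreen-dim, 8272 to 12721 in Sca1+ negative and 13223 to 16723 in Sca1- cells. The part of both cell types in the Rgs5 and cyclase signals was not tested. As the arrays hold RNA of whole sorted populations, fewer cells of a type and less RNA per cell cannot be told apart.

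Of 15 endothelial genes, 0 passed in Sca1+ negative against Sca1- cells by limma, with 1 higher at an unadjusted p under 0.05. Among all genes 1.22% were higher and 1.2% lower there. In ZsGreen-high against Sca1- cells 10 were lower and 1 higher, where 16.3% and 18.9% of all genes were called. After scaling to hybridization controls 2 were lower and 2 higher, where 35901 of 45037 probe sets were called, 94.9% of them higher. In ZsGreen-dim against Sca1- cells 1 was lower and 1 higher, where 5.62% and 7.63% of all genes were called. Of 5 genes of lymphatic endothelium, 4 were lower in ZsGreen-high, 2 in ZsGreen-dim and 0 in Sca1+ negative than in Sca1- cells, with 3 lower at an unadjusted p under 0.05 in the last. The summed signal of the 15 endothelial genes was 16129 to 16730 in ZsGreen-high, 14883 to 18557 in ZsGreen-dim, 17247 to 24591 in Sca1+ negative and 15506 to 35170 in Sca1- cells. A sum is weighted towards the brighter genes. The mean log2 signal of the 15 ran from 9.41 to 9.57, 9.53 to 9.85, 9.81 to 10.32 and 9.71 to 10.84 in this order. In ZsGreen-high against Sca1+ negative cells, where the cyclase subunits were higher, all 14 measured epithelial genes were lower, and their summed signal was 37817 to 152012 in ZsGreen-high and 248444 to 368045 in Sca1+ negative cells. With the mean of the epithelial list as a covariate, 0 member probe sets and 3 of all probe sets were called in that comparison. The epithelial level and the population did not overlap there, so they cannot be told apart. Contractile smooth muscle genes were also higher there, 10 of 11 measured, and Acta2 averaged 31452 ± 5876 in ZsGreen-high and 11542 ± 6640 in Sca1+ negative cells. Among all genes 16.5% were higher and 13.6% lower in that comparison.

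**Figure D4:**
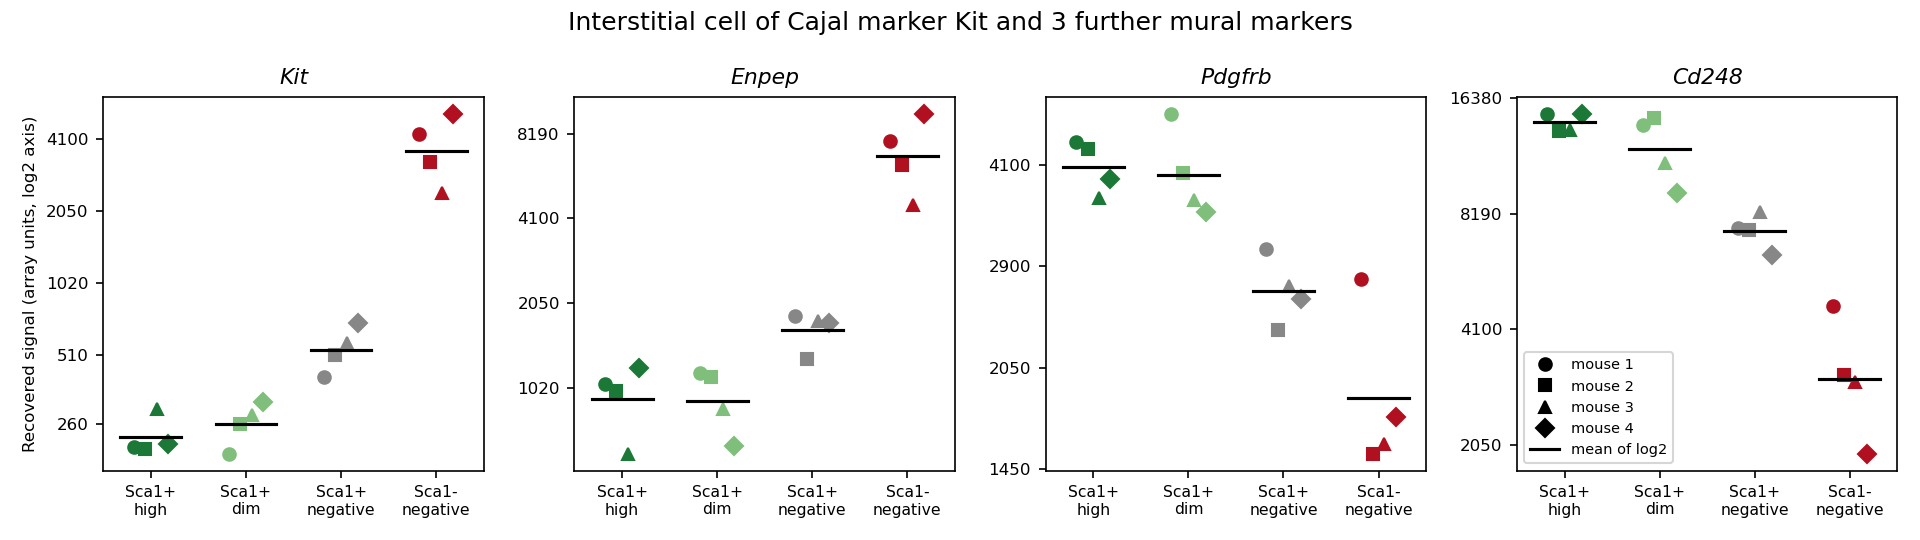
Recovered signal (log2 axis, array units) of Kit and of the mural genes Enpep, Pdgfrb and Cd248, with 4 arrays per population, 1 symbol per mouse and a bar at the mean of the log2 signals. Kit and Enpep are highest in Sca1- cells (Kit 2433 to 5249), and Cd248 in ZsGreen-high cells (13418 to 14914). Pdgfrb is close in ZsGreen-high and ZsGreen-dim cells, with lower means in the ZsGreen-negative populations.

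The genes most like each member were the 3 with the highest Pearson correlation of log2 signal over the 16 arrays, among 10006 genes brighter than the median probe set. This is a description, as the arrays share mice and 1 difference between populations can set it. For Rgs5 they were Kcnn3 (r = 0.96), Fibin (0.94) and Prkcq (0.94). Gucy1a1 was most like Satb1 (0.93), Heyl (0.92) and Etv1 (0.92), and Gucy1b1 like Pla2g7 (0.94), Satb1 (0.90) and Enpp4 (0.88). The closest to Mcam were Cacna1c (0.93), Kcna6 (0.90) and Kcnj8 (0.90). Rgs4 was closest to Rasip1 (0.90), Notch3 (0.85) and Reln (0.85). Higd1b had Tdrd5, Trpv4 and AI463170 (0.86 each), and Ndufa4l2 no gene above 0.75 (Ltb4r1).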

How the data were processed

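RNA of 16 sorted samples (4 populations from 4 mice) was hybridised to arrays whose signals the authors read with version 1.1 of Affymetrix Expression Console, according to the submitters' processing notes. How signals were summarised and normalized was not given in the sources used here. Each deposited value is a score: in the deposited table every probe set has mean 0 and SD 1 over the 16 arrays. The design had assumed a signal scale, so the whole-number signals behind the scores were recovered (Python 3.11.15, numpy 2.4.6, numba 0.67.0). This succeeded for all 45141 probe sets, with signals from 58 to 155937, and scores computed anew from them differed from the deposited scores by less than 1e-09. It also succeeded for 1000 of 1000 simulated probe sets. Probe sets were named by the platform's annotation table, in which 28898 had 1 gene, 551 several and 15588 none, with 104 controls. All 15 member probe sets had a gene identifier in RefSeq.

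The log2 signals of the 45037 probe sets that are not controls were fitted with limma (version 3.58.1, R 4.3.3, lmFit and eBayes). The fit used the 16 arrays together, a mean for each population and no mouse term. Differences are the first-named population minus the second. Two-sided p values were adjusted by Benjamini-Hochberg over all these probe sets, with a threshold of 0.05. Counts by gene, and all genes that are no members, use the probe set of a gene with the highest signal averaged over the arrays. A probe set was at background in a population when it did not exceed the highest of 23 nonspecific controls on any of its 4 arrays. On simulated data for Sca1+ negative against Sca1- cells, 94 of 100 probe sets changed by 1 and 97 of 100 changed by 2 on the log2 scale were recovered. The unchanged probe sets gave 15 false calls. The simulated noise was independent between arrays and probe sets and held no mouse effect, so these rates need not hold for these data. The number of arrays limits the precision.

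All probe sets of the members were named, and of each list up to 4 members past the threshold with the largest difference, plus defining genes of other cell types. Members and lists were chosen with earlier results of these data known. Per the labels, each mouse gave all 4 populations. Deviations from the population means correlated at 0.241 on average between arrays labelled with the same mouse and at -0.140 between different mice, with means of 0.466, -0.06, 0.447 and 0.109 for mice 1 to 4. Taking deviations from population means itself pulls the value between different mice below 0, so -0.140 is no independent reference for 0.241. Alternatives were the mouse as a block, quantile normalization, scaling to hybridization controls, 1 probe set per gene, a filter on dim probe sets, 50 units subtracted before the log, the deposited scores, a trend with robust moderation, an epithelial covariate, a fit of 2 populations, and leaving out each array or mouse.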

Additional observations from a re-analysis of the deposited data

Results flagged for a closer look

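Outliers were sought by Dixon's test in each of the 60 groups of 4 arrays (15 probe sets in 4 populations), and 3 were found. As chance gives about 1 in 20 groups, 3 is about the number that chance alone would give. Mcam in Sca1- cells of mouse 1 was 4609, against 1330 to 1551 in the other 3 mice. Gucy1a1 1420533_PM_at in ZsGreen-dim cells of mouse 3 was 5855, below the 9098 to 9306 of the other 3 mice. Ndufa4l2 in ZsGreen-dim cells of mouse 4 was 641, below the 803 to 841 of the other 3 mice.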

How the results depend on the processing

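The Rgs5 calls against Sca1- cells were kept under all alternatives but the deposited scores. Those scores gave 0 calls over all probe sets in Sca1+ negative and in ZsGreen-dim against Sca1- cells. The main fit gave 1041 and 5246 there. Numbers of member probe sets called are given below. In ZsGreen-high against Sca1+ negative cells (4), they were 7 with the mouse as a block and with hybridization scaling, 1 with 1 probe set per gene (fewer probe sets tested) and with the deposited scores, and 0 with the epithelial covariate. Of all 45037 probe sets, 11812 were called there in the main fit, 13479 with the block and 32374 with the scaling. In ZsGreen-dim against Sca1+ negative cells (0), the mouse block gave 2, where calls over all probe sets went from 420 to 4718. In ZsGreen-high against ZsGreen-dim cells (0), hybridization scaling gave 8, where calls over all probe sets went from 341 to 26852. In Sca1+ negative against Sca1- cells (7), 1 probe set per gene gave 3, the deposited scores 0 and a fit of these 2 populations 4. Against Sca1- cells (6 each), 1 probe set per gene gave 3 for ZsGreen-high and 3 for ZsGreen-dim cells, and the deposited scores gave 0 for ZsGreen-dim cells. The F test (9) gave 4 with 1 probe set per gene. Where no construction is named, the cause was not tested.

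Leaving out an array or mouse gave 0 to 7 in ZsGreen-high against Sca1+ negative cells, 0 to 1 in ZsGreen-dim against Sca1+ negative cells, 0 to 0 in ZsGreen-high against ZsGreen-dim cells, 4 to 8 in Sca1+ negative against Sca1- cells, 4 to 8 in ZsGreen-high against Sca1- cells, 4 to 7 in ZsGreen-dim against Sca1- cells, and 5 to 11 in the F test. The 0 in ZsGreen-high against Sca1+ negative cells came when mouse 2, the mouse 1 or 2 array of ZsGreen-high cells, or the mouse 2 or 3 array of Sca1+ negative cells was left out.

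Hybridization scaling moved the median of all probe sets by 0.38 in ZsGreen-high minus Sca1+ negative, 0.34 in ZsGreen-high minus ZsGreen-dim and 0.47 in ZsGreen-high minus Sca1- cells. The share of higher among all calls was then 94.7%, 91.9%, 98.3%, 62.0%, 94.9% and 86.8% for ZsGreen-high minus Sca1+ negative, ZsGreen-dim minus Sca1+ negative, ZsGreen-high minus ZsGreen-dim, Sca1+ negative minus Sca1-, ZsGreen-high minus Sca1- and ZsGreen-dim minus Sca1- cells, against 58.1%, 65.2%, 39.3%, 44.6%, 55.0% and 57.6% without it. Under this scaling, Rgs4 1448285_PM_at turned to 0.35 in ZsGreen-high minus Sca1+ negative and 0.34 in ZsGreen-high minus Sca1- cells, Rgs4 1416287_PM_at to 0.29 in ZsGreen-high minus ZsGreen-dim and 0.11 in ZsGreen-high minus Sca1- cells, and Ndufa4l2 to 0.33 in the last. With the epithelial covariate, the ZsGreen-high minus Sca1+ negative differences turned to -0.19, -0.25 and -0.52 for Gucy1a1 and -0.17 for Gucy1b1 1420872_PM_at. The mouse block made no other call change above 1.5 times, at 9, 9, 8 and 11 calls in the 3 comparisons with Sca1- cells and the F test. Calls over all probe sets were then 1560 in Sca1+ negative, 15402 in ZsGreen-high and 8263 in ZsGreen-dim against Sca1- cells. Without the block they were 1041, 14058 and 5246.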

Other observations

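The Sca1- array of mouse 1 was the highest of the 16 for several vessel genes as well as for Mcam. Pecam1 (CD31) read 7099 there, against 2570 to 3938 in the other 3 Sca1- arrays. Lyve1, a marker of lymphatic endothelium, read 13771 there, against 2585 to 4029, and Kcnj8 read 3282, against 700 to 1049. The highest Rgs5 and Gucy1a1 signals of the 16 arrays were on the same array, at 43305 for 1420941_PM_at and 18673 for 1420533_PM_at, where the other 3 Sca1- arrays read 21047 to 37880 and 9715 to 18342. Its high signals were not confined to vessel genes. Summed fibroblast genes read 265333 there, against 179852 to 191765 in the other 3, and contractile smooth muscle genes 153346, against 68628 to 77410. Summed epithelial genes were lower there, at 222974 against 328625 to 386221.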
